A study of Mus musculus with 18 samples.

Results

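The mitochondrial genome gave 28 of the 7123 transcript isoforms listed from polysome profiling of mouse myotubes and 43 of the 6636 listed from a decay assay in the same kind of cell. They were taken as every isoform placed on chrM, on either strand, which made 66 distinct isoforms of 11301, with 5 listed under identical ends in both assays. All 28 and all 43 lay on the plus strand, which carries mt-Nd1, mt-Nd2, mt-Co1, mt-Co2, mt-Atp6, mt-Co3, mt-Nd4, mt-Nd5 and mt-Cytb. An isoform was counted as single-gene or multi-gene by the protein-coding genes of which it held at least 90 percent of the length. The rest were rRNA or held no whole gene, being parts of a gene except for 1 in the control region. Genes held were read from the positions of both ends alone, and the bases between were not seen. Whether ends of different molecules were joined was not tested. A single-gene isoform can also span tRNA genes.

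Each isoform came from TIF-seq2, in which the 5′ and 3′ ends of one RNA molecule are read together. How fully the method captures mitochondrial RNAs was not tested, so shares here are of listed coverage and not of the RNA in the cells. The cells were wild-type primary myoblasts from gastrocnemius muscle of female mice, fused for 24 h in the ERK inhibitor SCH772984 at 1 µM. In the polysome assay, cells were given cycloheximide at 100 µg/ml for 5 min, and a sucrose gradient of 10 to 50% separated free RNA, a light fraction with 2 to 5 ribosomes and a heavy fraction with 6 or more, each from 2 mice (6 libraries). In the decay assay, cells of 3 mice were sampled at 0, 3, 6 and 12 h of actinomycin D at 7.5 µg/ml (12 libraries). The deposited tables give 1 value per isoform over all libraries of an assay and no column of a single library, so no replicate error could be given and no difference between conditions could be tested. Intervals on shares are 95 percent Wilson intervals and cover counting error only. The tables name no genes, and the muscle identity of the cells was not checked against markers here.

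Mitochondrial DNA is transcribed into long precursors that span most of a strand. tRNAs lie between most of the coding genes and are cut out of the precursor, which frees the mRNAs and rRNAs, and a short poly(A) tail then completes the stop codon of several mRNAs. The mRNAs encode subunits of the respiratory chain and of ATP synthase and are read by ribosomes inside the organelle, which differ from those of the cytosol and are not stopped by cycloheximide.

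In the polysome assay, most mitochondrial coverage (the deposited count of molecules or reads per isoform) ended at genomic runs of A and not at the ends of genes. A run of at least 7 A lay in the last 20 nt of 14 of the 16 isoforms with a deposited 3′ sequence, against 1.3% of all polysome isoforms with one. In the decay assay it was 4 of 21, against 1.09%. Isoforms share 3′ ends, so these are not counts of separate ends. The 14 stopped between the tRNA-Asn and tRNA-Cys genes (3), inside tRNA-Arg (4), inside mt-Nd4 (5) and opposite mt-Nd6 (2). The 4 stopped in the same gap (2), inside tRNA-Arg (1) and inside mt-Nd4 (1). Of the 21 decay isoforms, 17 stopped at the end of mt-Co1. Runs of at least 7 A ended 73.2% (70.8 to 75.4%) of mitochondrial coverage in the polysome assay and 8.16% (7.30 to 9.12%) in the decay assay. Isoforms with no deposited 3′ sequence, 12 with a coverage of 326 and 22 with a coverage of 1269, could not be examined for a run and count here as having none. Over coverage with a 3′ sequence alone, the shares were 95.6% (94.2 to 96.7%) and 12.8% (11.5 to 14.2%). A 3′ sequence was deposited only for isoforms that ended past an annotated gene end. By construction these 2 shares therefore leave out the isoforms that stopped at the annotated ends of mt-Nd1, mt-Nd2, mt-Nd3, mt-Nd4 and mt-Cytb. They cannot compare A runs with those ends. The run length was chosen after the sequences were seen; with at least 8 A the shares of all mitochondrial coverage were 49.7% and 7.28%. Among nuclear isoforms with a 3′ sequence, such ends held 1.48% and 2.13% of the coverage. Whether these molecules carried a tail beyond the A bases of the genome, or continued past the run, was not tested. The windows below run 5′ to 3′ on the plus strand of GRCm39 up to the listed 3′ end, as deposited with the isoforms, and capitals mark the longest A run; they are shown because these ends carry most of the polysome coverage, and the end of mt-Co1 is given for contrast.
Gap between the genes of tRNA-Asn and tRNA-Cys, chrM:5159-5182: acttctaccgccgAAAAAAAAAAA
Inside the tRNA-Arg gene, polysome assay, chrM:9813-9836: attagtttAAAAAAAAttaatgat
Inside mt-Nd4, polysome assay, chrM:10409-10432: aaaccacctAAAAAAAgataataa
Inside mt-Nd4, decay assay, chrM:10402-10425: ctagccaaaaccacctAAAAAAAg
Opposite mt-Nd6, polysome assay, chrM:13884-13907: tcccccctaaataaattAAAAAAA
End of mt-Co1, both assays, chrM:6918-6941: catatcctatatgtctttctcAAt

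The run in the tRNA-Arg gene gave listed ends in both assays at slightly different bases. The listed end was at chrM position 9836 in the polysome assay and at 9828 in the decay assay. The run in mt-Nd4 likewise gave ends at 10432 and 10425. The gap between the genes of tRNA-Asn and tRNA-Cys, where replication of the light strand starts, was the listed end with the most polysome coverage. It had 34.0% (31.6 to 36.6%) of mitochondrial coverage, against 6.28% in the decay assay. The runs inside mt-Nd4 had 19.3% against 0.885%, and the tRNA-Arg run had 15.7% against 0.999%. By contrast, the 3′ end of mt-Co1 RNAs, the last base before the tRNA-Asp gene and downstream of a stretch opposite a tRNA-Ser gene, had 3.38% (2.55 to 4.47%) in the polysome assay and 55.6% (54.0 to 57.3%) in the decay assay. The end of mt-Nd1, a complex I subunit, had 12.5% and 6.48%. Ends of coding genes together had 21.1% (19.0 to 23.3%) and 66.4% (64.8 to 68.0%), and ends of rRNA isoforms 3.45% and 25.4%. The assays differed in treatment, fractionation and libraries, and these cannot be told apart as sources of the difference.

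**Figure D1:**
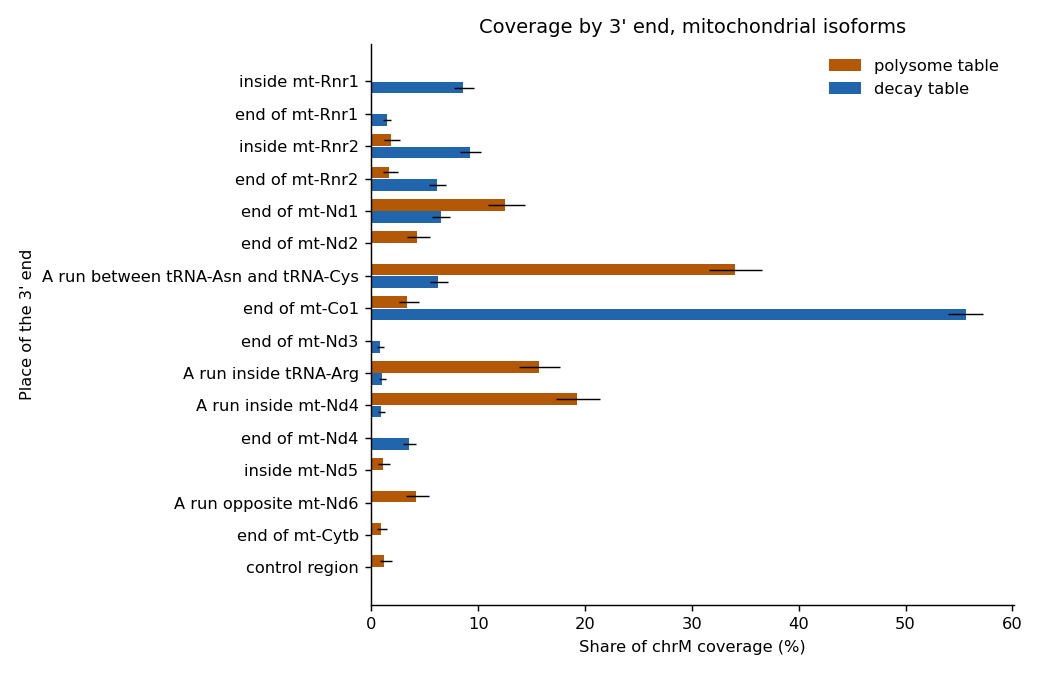
Share of mitochondrial coverage (percent, with 95 percent Wilson intervals for counting error) by the place of the 3′ end, in the polysome and the decay table. A runs hold 73.2% of the polysome coverage and 8.16% of the decay coverage, and the end of mt-Co1 holds 3.38% and 55.6%.

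Multi-gene RNAs were the largest class of polysome coverage, with 12 isoforms of 4596 to 10132 nt and 40.2% (37.7 to 42.8%) of it. In the decay assay 3 such isoforms, of 1668 to 6650 nt, held 4.77% (4.11 to 5.52%). Single-gene isoforms held 27.7% (25.4 to 30.1%) in the polysome assay, from 5 isoforms, and 18.3% (17.0 to 19.6%) in the decay assay, from 6. Isoforms of no whole gene held 28.6% over 8 isoforms, 1 of them in the control region and 7 parts of a gene, and 51.5% over 18, all parts of a gene, and rRNA isoforms 3.45% over 3 and 25.4% over 16. Of the multi-gene isoforms, 11 of 12 in the polysome assay and 2 of 3 in the decay assay ended at an A run; the remaining isoform of each assay has no deposited 3′ sequence and was not examined for one.

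**Figure D2:**
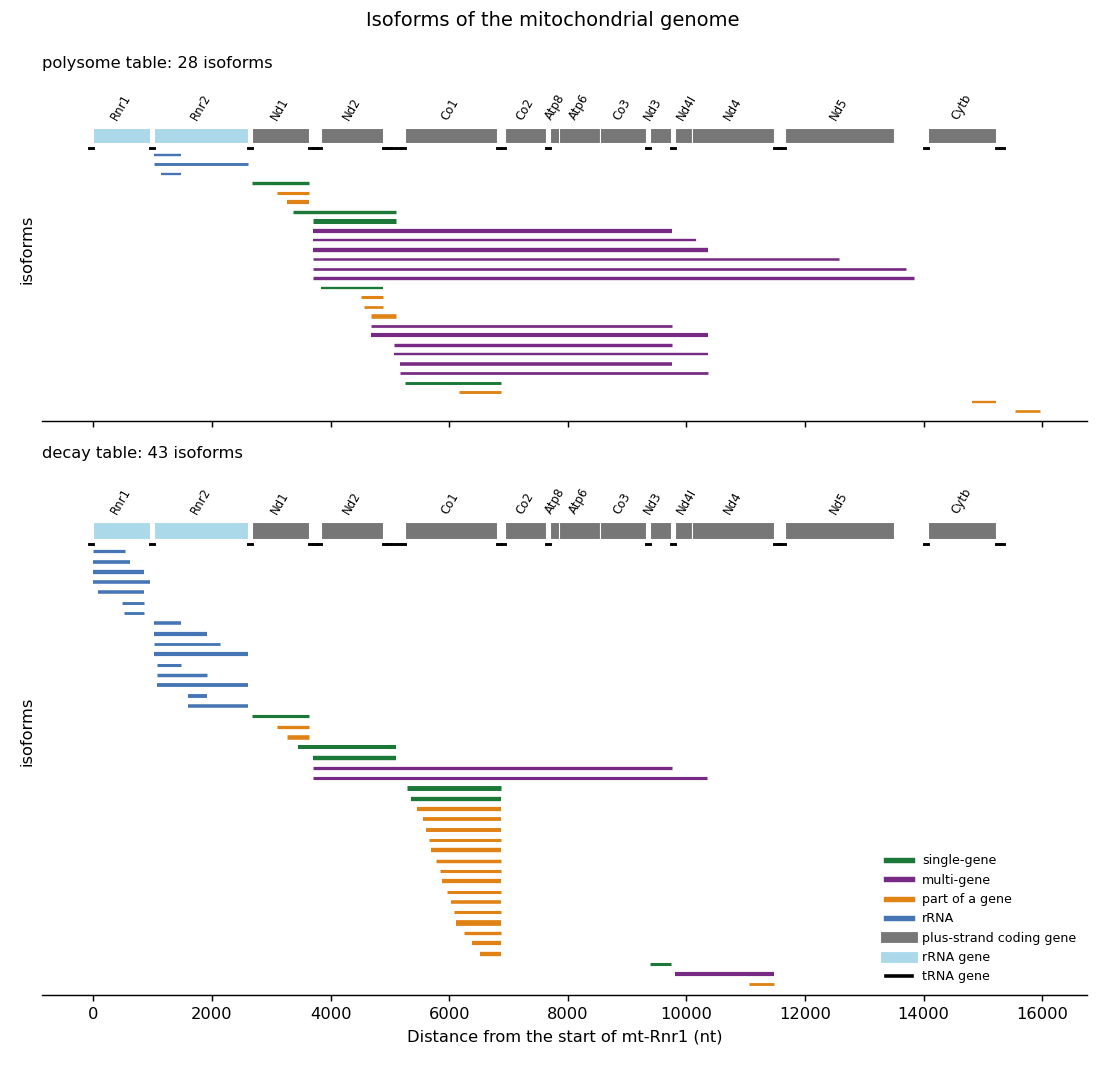
The 28 polysome and 43 decay isoforms drawn along the mitochondrial genome (nt along the plus strand), coloured by class (the class of gene parts includes 1 polysome isoform in the control region), with thicker lines for higher coverage (log scale) and the coding, rRNA and tRNA genes above. The long multi-gene isoforms lie mainly in the polysome panel, and the decay panel holds more isoforms inside mt-Co1 and the rRNA genes.

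The polysome multi-gene isoforms were built from a small set of ends. The 5′ end at chrM position 3776, opposite the tRNA-Gln gene and just after the tRNA-Ile gene, began 7 isoforms with a coverage of 590, or 42.4% (39.9 to 45.1%) of the mitochondrial total. In the decay assay it began 3 isoforms with a coverage of 200, or 5.71%. Further 5′ ends, inside mt-Nd2 and opposite the tRNA-Asn and tRNA-Cys genes, were also joined to more than one 3′ end. The first bases of these RNAs, on the plus strand of GRCm39, are given because the same 4 starts recur across the polysome multi-gene isoforms, and no base is in capitals.
Opposite tRNA-Gln, chrM:3776-3799: gacaataggaattgaacctacact
Inside mt-Nd2, chrM:4757-4780: atagcaataatagctctactaaac
Opposite tRNA-Asn, chrM:5142-5165: attactggcttcaatctacttcta
Opposite tRNA-Cys, chrM:5241-5264: aatatcaccttaagacctctggta

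By their end positions, all 12 polysome multi-gene isoforms held mt-Co1, mt-Co2 and mt-Co3, which encode the catalytic core of cytochrome c oxidase. By the same rule they held mt-Atp8 and mt-Atp6, which encode membrane subunits of ATP synthase. They also held mt-Nd3. Of the 12, 8 isoforms (coverage 341) reached through mt-Nd4l, 3 (coverage 73) through mt-Nd4 and 2 (coverage 58) through mt-Nd5, all complex I subunits. The longest ran from 3776 to 13907, spanned 10132 nt and had a coverage of 40. No listed isoform held mt-Cytb, the cytochrome b subunit of complex III, whole. A stretch of it from 14895 to 15286 had a coverage of 12 in the polysome assay and nothing of it was listed in the decay assay. No isoform lay on the strand of mt-Nd6.

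The coding genes thus differed in how they were seen. mt-Co2, mt-Atp6 and mt-Co3 had no single-gene isoform in either table and appeared only inside multi-gene isoforms, with a coverage of 559 over 12 isoforms in the polysome assay and 66 over 2 in the decay assay. mt-Nd5 was held whole only by the 2 polysome isoforms above. mt-Nd4 appeared whole in the decay assay only together with mt-Nd4l, in an isoform from 9877 to 11544 with a coverage of 101; these genes overlap and are known as a shared mRNA. mt-Nd1 was listed as a whole single-gene RNA, 2751 to 3705, in both assays, with a coverage of 39 and 30. mt-Nd2 had 3 single-gene isoforms with a coverage of 322 in the polysome assay and 2 with 220 in the decay assay. Of these, just the polysome isoform 3915 to 4949 (coverage 12) stayed within the gene. The others spanned the tRNA-Met and tRNA-Trp genes on either side and ended at the A run before the tRNA-Cys gene. mt-Co1 had 1 single-gene isoform with 24 in the polysome assay and 2 with 362 in the decay assay. Only isoforms with a coverage of at least 11 (polysome) or 21 (decay) and a span of at least 304 nt are listed, so a gene not listed may lie under these limits.

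Among the 5 isoforms listed in both assays, the 3 from coding genes took a larger share of all coverage in the polysome assay and the 2 from mt-Rnr2 a larger share in the decay assay. The mt-Nd2 isoform 3776 to 5182 had 0.0169% of the polysome coverage and 0.00429% of the decay coverage. Whole mt-Nd1 had 0.00243% and 0.000961%, and the mt-Nd1 part 3330 to 3705 had 0.00649% and 0.00516%. Whole mt-Rnr2, which encodes the RNA of the large mitochondrial ribosomal subunit, had 0.00144% and 0.00324%, and its part 1094 to 1555 had 0.000812% and 0.00157%. Mitochondrial isoforms in all held 0.0868% (0.0823 to 0.0915%) of the polysome coverage and 0.112% (0.109 to 0.116%) of the decay coverage.

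TE, the translational efficiency deposited with the polysome isoforms, was low for every mitochondrial isoform that could be used. The tables give no unit and no formula for it, so only ratios of TE are read here. It was listed for 15 of the 28 isoforms, those with a deposited sequence at both ends, and 8 of these had a coverage of at least 30 and a value above 0. Their TE ran from 0.000062 to 0.000186 with a median of 0.000145, 5.13-fold below the median of 0.000742 (95 percent interval 0.000725 to 0.000757) of 3517 nuclear isoforms chosen in the same way, a log2 difference of -2.36. All 8 of 8 lay at least 2-fold below the nuclear median, against 11.2% of all isoforms tested. None of the 8 lay 2-fold above it, against 9.5%. The 5th to 95th percentile of nuclear TE ran from 0.000286 to 0.00174, so all 8 were under the nuclear 5th percentile. All 8 ended at a run of at least 7 A and none at the end of a coding gene, so they do not describe RNAs that end there. With that kind of end, TE was listed only for whole mt-Co1, 0.000357 (coverage 24), and a part of it, 0.000163 (coverage 23). The 8 share ends and precursors and are not independent, and a coverage of 30 is 5 per library on average. The fractions were set by the number of ribosomes after cycloheximide, which does not stop mitochondrial ribosomes. Whether this TE measures translation inside the organelle was not tested.

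Among the usable mitochondrial isoforms that start at 3776, TE ran from 0.000122 to 0.000185 over long RNAs of many genes and an RNA holding 1 coding gene. The mt-Nd2 isoform from 3776 to 5182, the most covered in the polysome assay (270), had a TE of 0.000167. It also spans the tRNA genes on either side of mt-Nd2. From the same start, the isoform reaching the tRNA-Arg run had 0.000185 (coverage 109), and the one reaching into mt-Nd4 had 0.000175 (coverage 125). The isoform reaching opposite mt-Nd6, which held 10 of the 12 plus-strand coding genes, had 0.000122 (coverage 40). These 4 share their first 1407 nt.

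Isoforms with the same 3′ end and different starts also had a range of TE values. No replicate error was available to judge any of these gaps. At the tRNA-Arg run, the isoform starting opposite tRNA-Cys had a TE of 0.000186 (coverage 50) and the one starting opposite tRNA-Asn 0.000103 (coverage 40). At the mt-Nd4 run, the isoform starting inside mt-Nd2 had 0.0000952 (coverage 98). The lowest usable value, 0.000062, belonged to an mt-Nd2 isoform that starts upstream inside mt-Nd1, at 3439 (coverage 40). The median was 0.000148 for the 6 multi-gene isoforms and 0.000115 for the 2 single-gene ones, and this order turned when isoforms of lower coverage were included (log2 ratio 0.37, against -0.55 without a coverage minimum). Below that minimum, whole mt-Co1 from 5328 to 6941 had the highest mitochondrial TE, 0.000357 (coverage 24), and an isoform from 5142 to 10432 had the only value below 0, -0.0000762 (coverage 13).

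**Figure D3:**
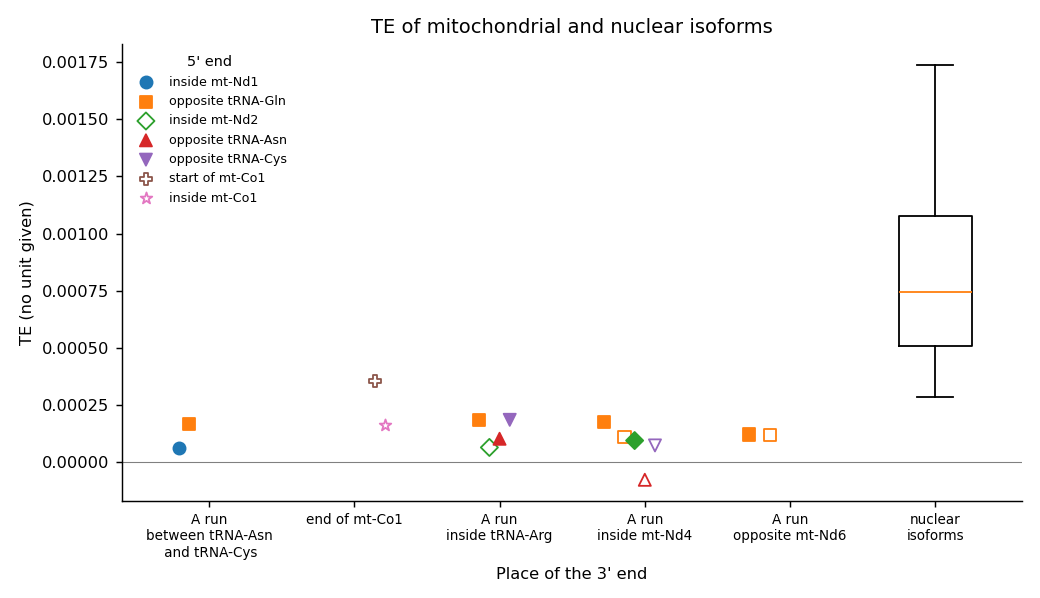
TE of the mitochondrial isoforms (no unit given) by the place of the 3′ end, with symbols for the 5′ end and open symbols for a coverage under 30, beside a box of the nuclear isoforms (box, middle 50 percent; line, median; whiskers, 5th to 95th percentile). All filled symbols lie between 0.000062 and 0.000186, under the nuclear 5th percentile of 0.000286.

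The whole mt-Co1 isoform started exactly at the annotated first base of the gene, with no leader before the start codon. Its first bases are shown because they bear on what the deposited UTR sequences hold: capitals mark the start codon and the first in-frame TGA, at codon 6, which the mitochondrial code reads as tryptophan.
Start of mt-Co1, plus strand of GRCm39, chrM:5328-5357: ATGttcattaatcgtTGAttattctcaacc
The sequence deposited as the 5′ UTR of this isoform held 510 nt from the start codon on, or 170 codons, with 5 in-frame TGA and 0 TAA or TAG. Sequences deposited as 5′ UTRs overlapped an annotated coding gene in 5 of 16 polysome isoforms and in 18 of 21 decay isoforms of the mitochondrial genome. In these isoforms it holds coding bases.

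Half-lives in the decay assay were short for many coding RNAs and long for some rRNA pieces. Their unit is not given in the tables, and the sampling times are in hours. Whether actinomycin D at this dose stopped transcription of mitochondrial DNA was not tested. Of the 43 isoforms, 34 had a coverage of at least 30 and a value above 0, with a median of 7.63 (5.99 to 8.34) and a range of 2.63 to 219. The median of 5247 nuclear isoforms was 10.8 (10.7 to 11.0), 1.42-fold higher, a log2 difference of -0.51 for mitochondrial over nuclear. At least 1.5-fold below the nuclear median were 14 of 34, against 9.03% of all isoforms tested. At least 1.5-fold above it were 5 of 34, against 9.94%. The 14 low ones were 3 of 5 single-gene, 3 of 3 multi-gene and 8 of 14 part isoforms and 0 of 12 rRNA isoforms. The 5 high ones were 4 rRNA isoforms and 1 single-gene isoform. Without rRNA the mitochondrial median was 6.00 (4.77 to 7.88) over 22 isoforms. A coverage of 30 is 2.5 per library on average, and 7 of the 43 values exceeded 12, the last sampling time in hours. Nuclear isoforms with a coverage of 30 to 99 had a median half-life of 9.83 and a 5th to 95th percentile of 5.87 to 21.8.

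**Figure D4:**
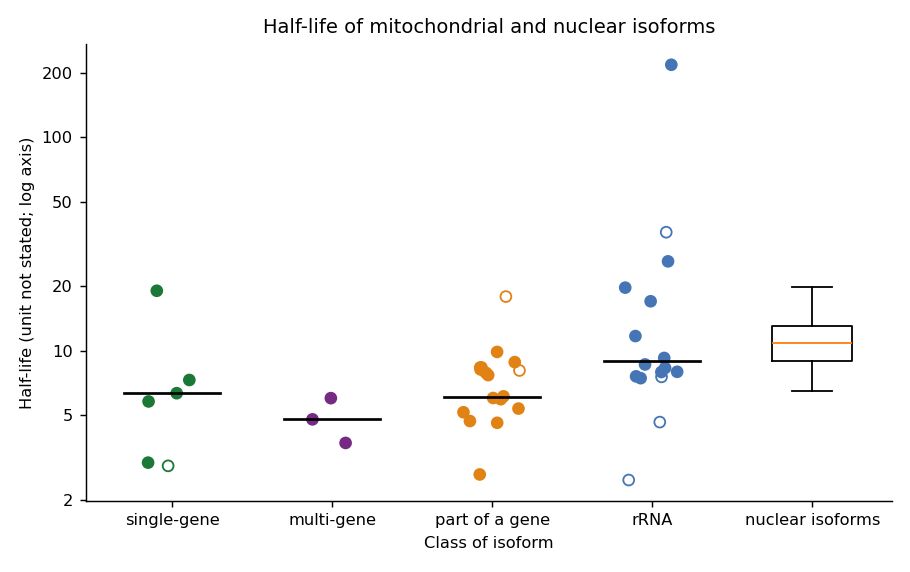
Deposited half-life (log axis, unit not stated) of the 42 mitochondrial isoforms with a value above 0, by class, with open symbols for a coverage under 30, beside a box of the nuclear isoforms (box, middle 50 percent; line, median; whiskers, 5th to 95th percentile). Multi-gene isoforms lie between 3.69 and 5.99 and rRNA isoforms reach 219.

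Among isoforms that held 1 gene, RNAs of complex I subunits had both the lowest and the highest half-life. Apart from complex I genes, only mt-Co1 had such isoforms. Whole mt-Nd1 had a half-life of 2.99 (coverage 30) and whole mt-Nd3 2.88 (coverage 28, under the minimum of 30). The mt-Nd4l and mt-Nd4 isoform had 3.69 (coverage 101). mt-Nd2 from 3776 to 5182 had 7.29 (coverage 134), while the mt-Nd2 isoform that starts further upstream, at 3518, and ends at the same base had 19.1 (coverage 86). Those 2 share 1407 nt and differ by a 5′ extension into mt-Nd1, which is also the kind of extension that went with the lowest usable TE in the polysome assay, there from a start at 3439. The mt-Co1 isoforms that held the gene nearly whole had 6.32 (5366 to 6941, coverage 242) and 5.78 (5431 to 6941, coverage 120). The multi-gene isoforms from 3776 had 5.99 to the tRNA-Arg run (coverage 35) and 4.77 into mt-Nd4 (coverage 31). Both were below the 7.29 of the mt-Nd2 isoform with the same start, which itself spans tRNA genes. The median of the 3 multi-gene isoforms was 4.77 and that of the 5 single-gene ones 6.32. The only half-life below 0, -17.4, belonged to a part of mt-Nd4 from 11132 to 11544 (coverage 22).

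mt-Co1 dominated the decay assay through RNAs that lacked its 5′ part. Its 3′ end was shared by 17 isoforms with a coverage of 1949, whose 5′ ends lay 38 to 1256 nt inside the gene. The most covered mitochondrial isoform of the assay, 6190 to 6941 with a coverage of 609 and a half-life of 8.16, held less than the last 50 percent of the gene. Half-lives of the 17 ran from 2.63 to 17.9 with a median of 6.32. The 5 isoforms that began more than 800 nt inside the gene had half-lives of 8.07 to 9.87 (median 8.34), the 5 that began 500 to 800 nt inside had 2.63 to 8.34 (median 5.92), and the 7 that began nearer the start had 4.59 to 17.9 (median 6.00). The bins were set after the values were seen. After the isoform from 6190, the most covered that held under 90 percent of the gene were those from 5768 (coverage 138, half-life 5.35), 6584 (126, 9.87) and 5958 (116, 6.11). The lowest half-life of any mitochondrial isoform with a coverage of at least 30 was the 2.63 of the isoform from 5855 (coverage 46). Spearman's rho between span and half-life was -0.483 over the 17 isoforms and -0.499 over the 14 with a coverage of at least 30; all share a gene, a 3′ end and the same 12 libraries, and this is a description only. The value of 17.9 rests on a coverage of 25.

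The 3 isoforms ending at the 3′ boundary of mt-Nd1 had longer half-lives the shorter they were. Coverage rose in the same order, and this is a description only. Half-life was 2.99 for the whole gene, at the minimum coverage of 30. It was 4.68 for the isoform starting 424 nt inside (coverage 36) and 7.88 for the one starting 579 nt inside (coverage 161). The last was also the mt-Nd1 isoform with the highest coverage in the polysome assay, 104 against 39 for the whole gene. In the polysome assay only 1 isoform lacking the 5′ part of mt-Co1 was listed, 6243 to 6941, with a coverage of 23 and a TE of 0.000163. For mt-Nd2, the most covered isoform that lacked its 5′ part was 4757 to 5182, with 163 in the polysome assay. Smaller parts were 3170 to 3705 in mt-Nd1 (coverage 31) and 4577 to 4949 in mt-Nd2 (coverage 29). These parts of mt-Nd1 and mt-Nd2 had no deposited TE.

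**Figure D5:**
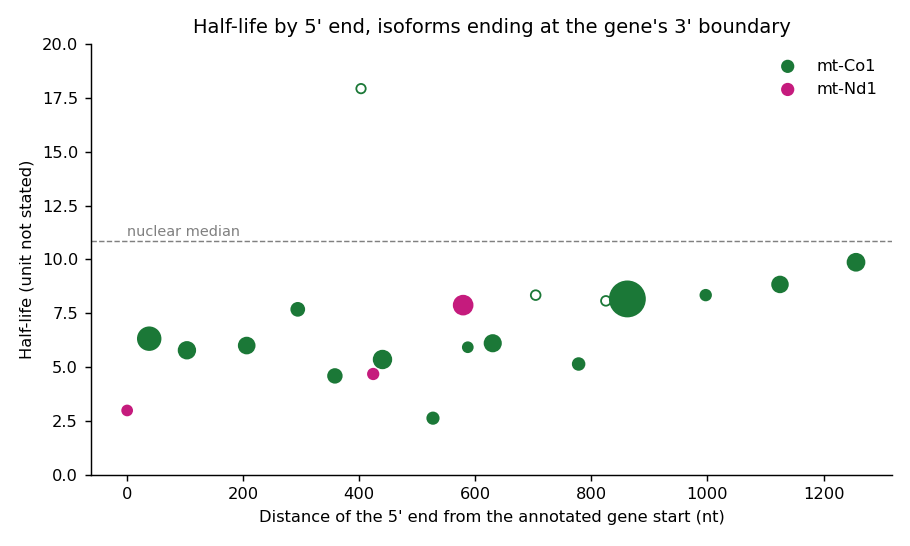
Half-life (unit not stated) of decay isoforms that end at the 3′ boundary of mt-Co1 (17 isoforms) or mt-Nd1 (3 isoforms) against the distance of the 5′ end from the annotated gene start (nt). Symbol area follows coverage, open symbols have a coverage under 30, and the dashed line is the nuclear median of 10.8; all but 1 of the 20 isoforms lie under it.

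The rRNA isoforms were mostly pieces with common ends. In the decay assay, whole mt-Rnr1, the RNA of the small ribosomal subunit, from 70 to 1024 had a half-life of 9.24 (coverage 50). Isoforms with the same start that stopped earlier had 19.7 (to 928, coverage 119), 26.2 (to 697, coverage 56) and 17.0 (to 606, coverage 34), so each shortened form was listed with a longer half-life than the whole RNA. Isoforms that began inside the gene and stopped at 928 had 8.62 (coverage 48), 2.48 (coverage 23) and 7.54 (coverage 22). For mt-Rnr2, the 3 isoforms that reached position 2681, which is 6 nt past the annotated end, had 7.43, 7.58 and 7.94 whatever their start (coverage 101, 67 and 48). Isoforms that stopped at 1986 had 8.30, 11.7 and 219 (coverage 45, 109 and 71). From the start of whole mt-Rnr2 (7.43), those stopping at 1555, 1986 and 2211 had 7.96, 11.7 and 4.63 (coverage 49, 109 and 21). An isoform from 1151 to 1555 had 35.9 (coverage 28). The value of 219 lies far outside the 12 h over which RNA was sampled. The rRNA median was 8.93 (7.94 to 19.7) over 12 isoforms with a coverage of at least 30. The polysome assay listed 3 rRNA isoforms, all of mt-Rnr2 and none with a coverage above 23.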

How the data were processed

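TIF-seq2 was run on 6 polysome and 12 decay libraries. Tools named in the submitters' processing notes were STAR 2.5.3a, UMI-tools 0.5.4, cutadapt 1.16 and bcl2fastq 2.20.0, with GRCm39 as the build. The authors deposited 1 table per assay with a whole-number coverage count per isoform, pooled over libraries, and a derived score per isoform, TE or half-life; no source used here gives the clustering of ends or the formulas of these scores. Columns of a single library number 0, so depth per library is unknown; coverage summed to 1601919 (polysome) and 3121491 (decay).

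The mitochondrial isoforms, lists and tests were chosen with earlier results of these data known. Named were all 9 listed genes with their most covered single-gene isoform, the 5 most covered multi-gene isoforms and the 5 most covered isoforms holding no whole coding gene in each table, and the highest and lowest value at a coverage of at least 30. Others, including the starts and runs of A, were chosen after their values were seen. Genes were named from the RefSeq table of GRCm38.p6 by boundaries; annotated ends implied by the deposited distances matched it in 24 of 24 polysome and 27 of 27 decay isoforms. Medians used coverage of at least 30 and values above 0, with binomial order-statistic intervals over isoforms. A 3′ end within 3 nt of a gene boundary counted as one. Overlapping deposited sequences were compared at 9460 bases, of which 0 differed. Of 13330 nuclear entries with a sequence, 0 held a 25-nt stretch of the mitochondrial sequences. An isoform listed in both assays counts here in each. The calculations were tested on simulated data and run with Python 3.11.15, pandas 2.3.3 and SciPy 1.17.1. Alternatives varied the coverage minimum, weighting, nuclear set, gene rule, boundary tolerance and run length.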

Additional observations from a re-analysis of the deposited data

How the results depend on the processing

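No paired analysis was possible because the deposited columns carry no replicate, and for the same reason no replicate could be left out. Of 45 values under alternative settings, 34 moved by less than their interval or range, 10 moved more and 1 reversed. Some of the 34 could hardly differ. The plus-strand setting changed nothing, because all mitochondrial isoforms lay on that strand. Including values below 0 added no mitochondrial isoform, because those with such values had a coverage of 13 and 22, under the minimum of 30. Mitochondrial over nuclear medians stayed below 0 throughout, from -2.60 to -2.12 for TE and from -0.85 to -0.44 for half-life (log2). The reversed value was TE of multi-gene over single-gene isoforms, 0.37 with a coverage of at least 30 and -0.55 with no minimum. The mitochondrial share of polysome coverage, 0.0868%, was 0.0718% with a coverage of at least 30, 0.0771% with the minimum of the decay table and 0.0406% over isoforms with the same ends in both tables. The share of decay coverage, 0.112%, was 0.106% with a coverage of at least 30 and 0.0216% over shared isoforms. The multi-gene share of decay coverage, 4.77%, was 1.88% without the mt-Nd4l and mt-Nd4 isoform. Shares of coverage ending at a gene boundary were 21.1% and 67.8% within 3 nt and 56.8% and 80.3% within 10 nt; the wider limit takes in the A run between the tRNA-Asn and tRNA-Cys genes, which ends 9 nt from a boundary, and the mt-Rnr2 isoforms that end 6 nt past one.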

Other observations

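A polysome isoform from 15620 to 16032, with a coverage of 17, lay in the control region past the last coding gene and held no gene of the table. It had no deposited TE.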
